A study of Lachancea waltii with 4 samples.

Results

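In the budding yeast Kluyveromyces waltii (now Lachancea waltii), 152 genes had a high ratio of RNA to genomic DNA signal. It was at least 8-fold above the median gene but below that of the genes with the highest ratios. These 152 genes are 2.93% of the 5192 genes with a level, out of 5193 genes on the array, and are called the members below. The level of a gene is the log2 ratio of its RNA signal to its genomic DNA signal, relative to the median gene, as a mean of 4 arrays. Members were chosen by that level alone, at 3.0 or more and under 4.4 on the log2 scale. These thresholds are 8-fold and 21.1-fold above the median gene, so that the range covers 2.64-fold. All statements on the members' levels are therefore descriptions and carry no test.

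Cells of strain NCYC 2644 were grown at 30 °C in an in-house rich medium to mid-log phase, and their total RNA carried the dye Cy3. Each RNA sample was hybridised against genomic DNA from that strain, sheared to 500 to 1000 bases and carrying Cy5, on a custom two-colour Agilent array with 2 probes of 55 bases for each gene. The 4 arrays form 1 group with no treated or mutant counterpart, carry RNA samples numbered 1 to 4 in the labels, and are described as biological replicates in the study's methods. If they did not come from separate cultures, the spread given below is technical in part, and a single strain and medium set the limits of what the levels describe.

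The genomic DNA channel serves as a common reference. Each gene present at one copy gives its probes the same amount of DNA target, so that dividing by this signal corrects for how well a probe hybridises. In growing yeast, highly expressed genes mostly serve protein synthesis and sugar metabolism, and in Saccharomyces cerevisiae such genes are known to favour a limited set of synonymous codons, those read by abundant tRNAs. The identifiers are not paired with gene names in the files, and no annotation or genome was used here. The members are therefore given by identifier, without coordinates, names or roles, and what they share was read from their probes and identifiers.

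The data did not show the members as a class of their own. In bins of 0.2 on the log2 scale, the number of genes fell through the range from 36 at 3.0 to 3.2 over 35, 29, 19, 15 and 11 to 7 at 4.2 to 4.4, with no rise in between. The counts reached a low of 5 just above the upper threshold, at 4.4 to 4.6, and rose again to 20 at 5.2 to 5.4. The members are thus the upper end of the falling tail of the main distribution, next to 90 genes of higher level that have a peak of their own. They took ranks 91 to 242, and 597 genes lay directly below them at 1.6 to under 3.0. Just below the lower threshold, the bin at 2.8 to 3.0 held 51 genes and continued the same slope.

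**Figure D1:**
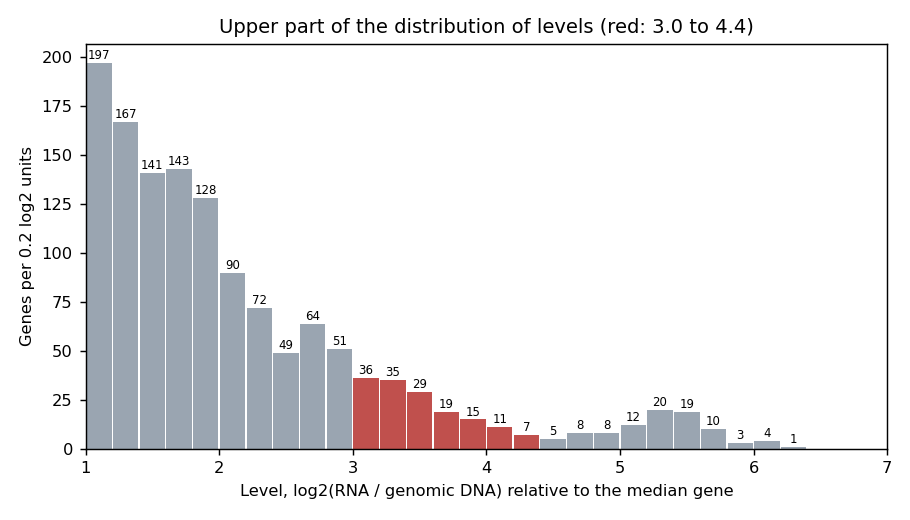
Number of genes (y axis) in bins of 0.2 of the level (x axis, log2 of RNA over genomic DNA relative to the median gene, mean of 4 arrays), for levels above 1, with the members' bins in red. The counts fall from 36 to 7 across the members' range and rise to 20 above it, at 5.2 to 5.4.

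The median level of the members was 3.43, or 10.8-fold above the median gene. Close to it were 3 members with probes from separate stretches of the gene, Kwal_23.6233, Kwal_26.9069 and Kwal_14.1904. Kwal_23.6233 measured 3.53, 3.25, 3.67 and 3.30 on arrays 1 to 4 (3.44 ± 0.20, SD, n = 4). Kwal_26.9069 measured 3.56, 3.37, 3.50 and 3.30 (3.43 ± 0.12). Kwal_14.1904 measured 3.43, 3.39, 3.60 and 3.38 (3.45 ± 0.10). The values of these 3 genes overlap, and each gene was higher on arrays 1 and 3 than on arrays 2 and 4.

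The highest members reached the upper threshold within their spread. Kwal_33.13256 measured 4.56, 4.10, 4.66 and 4.26 (4.39 ± 0.26), and lay inside the range on 2 of 4 arrays. Kwal_27.10636 had the same mean with a far smaller spread, at 4.42, 4.34, 4.39 and 4.42 (4.39 ± 0.038). Kwal_27.10898 followed at 4.48, 4.07, 4.48 and 4.22 (4.31 ± 0.20). In Kwal_33.13256 and Kwal_27.10898 arrays 1 and 3 were the higher ones, whereas Kwal_27.10636 was nearly level over the arrays. Kwal_23.3955, the fourth highest, is given with the arrays that stand apart. The nearest genes above the threshold were Kwal_23.4361 at 4.48 ± 0.045 and Kwal_56.23192 at 4.49 ± 0.15.

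At the lower end were Kwal_26.8433 (3.02 ± 0.094), Kwal_14.1181 (3.02 ± 0.061), Kwal_23.5804 (3.01 ± 0.050) and Kwal_26.8831 (3.003 ± 0.14). Kwal_26.8831 measured 3.02, 3.0003, 3.16 and 2.83, and array 4 alone was clearly under the threshold. The nearest genes outside, Kwal_33.15500 and Kwal_33.14208, had levels of 2.999 ± 0.26 and 2.998 ± 0.18. The lower boundary therefore divides genes that these arrays do not separate.

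Most members lay in the range on each single array, all of which entered the mean that chose them. Of the 152 members, 125 lay in the range on all 4 arrays, 16 on 3 arrays and 11 on 2, and 24 had a mean within 1 SD of a threshold. Arrays 1 and 3 held 158 and 162 genes in the range and arrays 2 and 4 held 145 and 148. The members' median level followed the same split, at 3.48 and 3.50 on arrays 1 and 3 against 3.36 and 3.39 on arrays 2 and 4. Conversely, 31 genes that are not members lay in the range on at least 1 array.

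The spread of a member's level over the arrays was close to that of other genes. The SD over 4 arrays had a median of 0.101 over the members, with quartiles of 0.0647 and 0.132, against 0.103 over all other genes and 0.146 over the 90 genes above the range. The 3 members that varied least were Kwal_27.10999 (3.55, 3.53, 3.53 and 3.54, SD 0.010), Kwal_33.14687 (3.71 ± 0.027) and Kwal_33.14217 (3.59 ± 0.027). The widest spread belonged to Kwal_37.16342, described with its signals below, followed by Kwal_33.14220 and Kwal_14.1845. Kwal_33.14220 measured 3.39, 2.68, 3.28 and 2.81 (3.04 ± 0.35), and Kwal_14.1845 measured 3.28, 3.89, 3.32 and 3.77 (3.56 ± 0.31). These genes split the arrays the same way but in opposite directions, with arrays 1 and 3 above arrays 2 and 4 in Kwal_33.14220 and below them in Kwal_14.1845.

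Over all members, this split was clear in r for arrays 1 and 3 alone. Pearson's r between arrays over the 152 members was 0.945 for arrays 1 and 3, 0.910 for arrays 2 and 4, and 0.883 to 0.909 for the other 4 pairs. These values describe genes, which are not independent replicates, over a range of 2.64-fold. Over all genes r was 0.991 to 0.996. The SD of the difference between arrays over members ran from 0.126 (arrays 1 and 3) to 0.182 (arrays 1 and 2). Kwal_37.16342, at 2.88 on array 2 and 4.22 on array 4 from signals near background, is included in r and SD. Neither is given here without that gene. Whether RNA, genomic DNA or hybridisation differed between the array pairs was not tested.

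The order of the members was resolved only over larger distances. Neighbours in rank lay a median of 0.0052 apart and at most 0.077, and 0 of the 151 neighbouring pairs came in the same order on all 4 arrays. Of the 3801 pairs of members at least 0.5 apart, 3772 (99.2%) did. Each array is part of the mean that set the order, so that these counts are a description. The order held over the arrays at a distance of 0.5, not from one gene to the next.

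**Figure D2:**
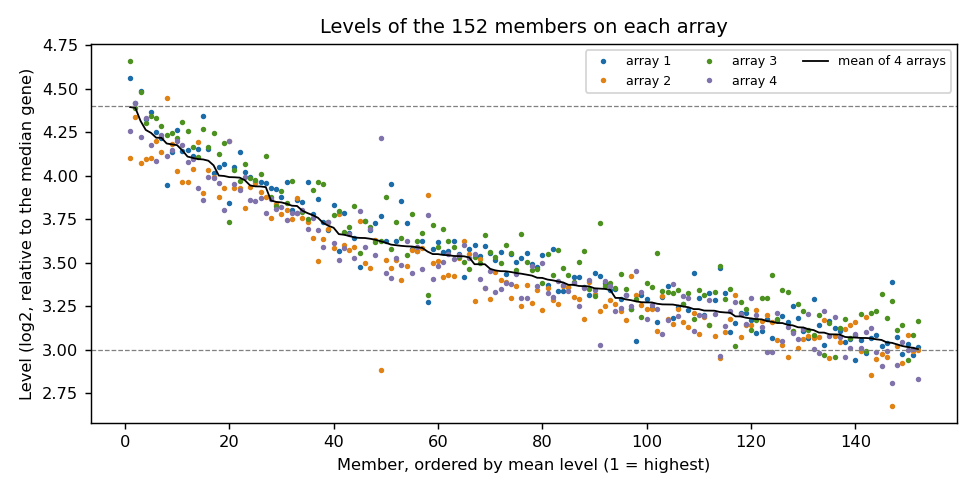
Level of each of the 152 members (y axis, log2 relative to the median gene) on each of the 4 arrays (coloured points) and as their mean (black line), ordered by mean from the highest (x axis), with dashed lines at the thresholds of 3.0 and 4.4. The points of most members lie close to the line, and Kwal_37.16342, between 2.88 and 4.22, has the widest spread.

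A level is a ratio, and the signals behind it placed all but 3 of the members together. The members' median RNA signal was 19323 scanner units after background subtraction, against 1430 units over all other genes, and 0 members had a saturated probe. Leaving out Kwal_37.16342, the other 151 members had at least 7697 RNA units and at least 4927 genomic DNA units, far above the negative control spots, whose median RNA signal was 27.5 to 37 units per array.

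Genomic DNA signal was higher for members than for most genes. Relative to the median probe it had a median of 0.29 on the log2 scale over members, against -0.01 over other genes and 0.98 over the 90 genes above the range. It lay above the median probe in 73.7% of members. The median probe was exceeded by more than 2-fold in 5 members (3.29%), near the 4.74% of all genes, and in 45.6% of the genes above the range. Among bright probes, those with over 10000 RNA units, genomic DNA signal rose by 0.0762 ± 0.0023 units per RNA unit (SD, n = 4 arrays). With this rise subtracted, 164 genes lay in the range, 136 of the members among them. The genomic DNA signal is part of the level that chose the members, and these comparisons are a description.

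Kwal_55.22201 and Kwal_47.16834 reached the range from far brighter signals than all other members. Kwal_55.22201 had RNA signals of 115708, 172985, 148934 and 145831 units on its first probe and genomic DNA signals of 86014, 104185, 93651 and 95786 units. Its genomic DNA signal was 10.4-fold that of the median probe, and its level was 3.23 ± 0.061. The 2 probes of this gene share 52 of their 55 bases. Kwal_47.16834 had mean signals of 119247 RNA units and 86011 genomic DNA units, 8.63-fold the median probe, and a level of 3.16 ± 0.19. The RNA signal of these 2 genes alone would place them among the most abundant transcripts, at 6.62 and 6.29 (log2). How many copies of their sequence the genome holds was not analysed here. The third highest genomic DNA signal among members was that of Kwal_23.5831, 2.36-fold the median probe, with a level of 4.06 ± 0.13 and 5.32 by RNA alone.

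Kwal_37.16342 is a member only as a ratio of signals near background. Its single usable probe gave 27, 38.5, 42 and 40.5 RNA units and 13, 29, 23 and 12.5 genomic DNA units, and the levels that follow were 3.77, 2.88, 3.62 and 4.22 (3.62 ± 0.55). Its RNA signal was close to that of the negative controls (27.5, 37, 34 and 34 units), and its genomic DNA signal was 0.0020 of the median probe. Of the 294 probes of members that were used, this was the 1 probe marked as not well above background. The other probe of the gene was left out because its genomic DNA signal was -1 unit after subtraction on array 3. RNA alone put the gene at -5.30, and its level is not a reliable value.

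**Figure D3:**
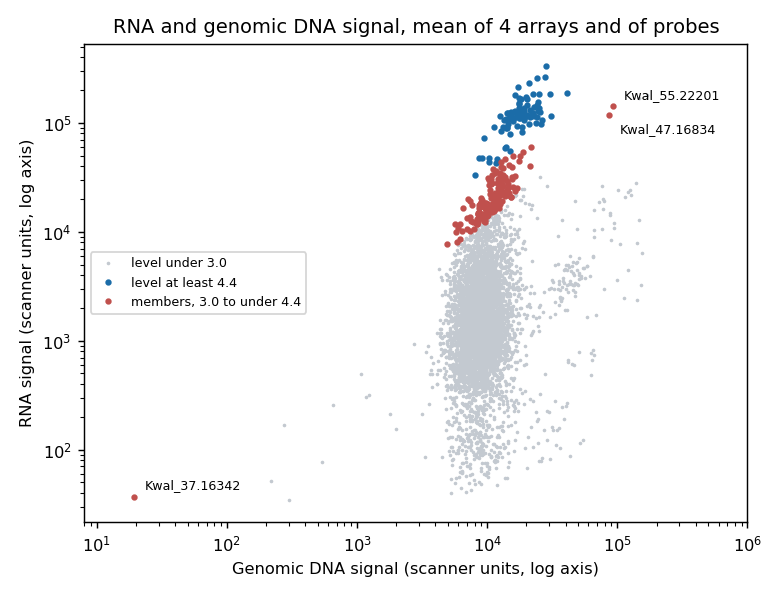
RNA signal (y axis) against genomic DNA signal (x axis) of each gene, both in scanner units on log axes, as means over probes and 4 arrays, with members in red, genes at 4.4 or more in blue and all lower genes in grey. The members form a narrow band except for Kwal_55.22201 and Kwal_47.16834 at the bright end and Kwal_37.16342 near background.

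Without the division by genomic DNA, 114 of the 152 members stayed in the range, 25 lay at 4.4 or above and 13 lay below 3.0. Pearson's r between the ratio and RNA alone was 0.410 over the members. Kwal_37.16342, at 3.62 by the ratio and -5.30 by RNA alone, is among them, and r without that gene is not given here. A move of more than 2-fold was found for 7 members (4.61%), 6 of them lowered by the division and 1 raised, against 5.86% of all genes. Among the members with the lowest genomic DNA signal, Kwal_23.3721 had a level of 3.21 ± 0.11 and 2.37 by RNA alone, and Kwal_26.6979 had 3.66 ± 0.091 and 3.03.

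The rule used the median of a gene's probes, which for 2 probes is their mean, and did not use the difference between them. Of the members, 142 had 2 usable probes and 10 had 1, and in 118 both probes lay in the range. Pearson's r between first and second probe was 0.607 over those 142 genes. Both values enter the mean that chose the members, so that this r and the count of probes in the range are descriptions. As designed, the probes of 52 members (34.2%) overlapped on the gene by 50 bases or more, against 12.1% of other genes, so that a small difference there is not independent. The probes of 61 members (40.1%) did not overlap, against 67.1% of other genes. An overlap was counted from 5 bases on, where the end of a probe matched the start of the other. Kwal_55.22201 is therefore among these members and in the median below, although its probes share 52 bases. Among genes with non-overlapping usable probes, the median absolute difference between probes was 0.243 on the log2 scale over 57 members and 0.310 over 3213 other genes.

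A difference between probes of more than 2-fold was found for 2 of 142 members (limma's moderated test against a 2-fold bound, two-sided, Benjamini-Hochberg adjusted over 4939 genes). Over all genes with 2 probes, 60 of 4939 were called, or 1.21%, so that the members' count is near the background. With non-overlapping probes only, 1 of 57 members and 57 of 3270 genes (1.74%) were called. Tested against no difference instead of a 2-fold bound, 51 of the 142 members and 2671 of the 4939 genes (54.1%) were called. Small differences between probes were thus common in the whole set, and members were called less often. Members' probes also overlapped more often, and what this adds to the lower share was not tested.

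The 2 called members differed in kind. In Kwal_33.13869 the probes do not overlap and had levels of 4.15 ± 0.17 and 1.96 ± 0.11 (SD, n = 4), a difference of 2.19 ± 0.083 (SE, limma adjusted p = 4.94e-07). The first probe gave 30280 to 40770 RNA units over 10509 to 13647 genomic DNA units, and the second gave 11021 to 18842 RNA units over 18968 to 26829 genomic DNA units. On every array the first probe was thus higher in RNA and lower in genomic DNA, and neither probe lay near the gene's level of 3.06. In Kwal_47.17049 the probes overlap by 50 bases and yet had levels of 4.48 ± 0.15 and 2.73 ± 0.35, a difference of 1.75 ± 0.093 (SE, limma adjusted p = 0.000149). Its first probe gave 30334 to 33804 RNA units and its second 4738 to 8221, with genomic DNA signals of 8090 to 9410 and 5078 to 6105 units. Next in width were Kwal_0.204, at 3.63 and 2.65, and Kwal_23.3721, at 2.78 and 3.65, which did not pass the test (adjusted p = 1 for both).

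Probe composition set the members apart from other genes by little. The GC content of the probes had a median of 43.6% over members and over the genes above the range, and 42.7% over all other genes. Quartiles over members were 41.8% and 43.6%.

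The codons inside the probes differed far more. A set of 23 codons preferred in highly expressed genes of S. cerevisiae was counted in probes with exactly 1 stop-free forward frame (4825 of 10131 probes), leaving out ATG and TGG. Pooled over 140 probes of 104 members, 1596 of 2382 codons (67.0%) were preferred codons, against 46.4% in other genes. Codons in the overlap of 2 counted probes entered once for each probe, here and in the counts by amino acid. Overlaps of 50 bases or more were commoner in members (34.2%) than in other genes (12.1%), so that repeats can weigh more in the members. The median share per member was 68.1%, with quartiles of 55.4% and 77.8%. A share of 60% or more was found in 73 of 104 members (70.2%) and in 486 of 3448 other genes (14.1%). Codon content took no part in choosing the members, but genes are not replicates, and the comparison is given without a test.

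The share differed little among genes below the median gene and was higher in each band above it, the members included. It was 44.1%, 43.9%, 43.2% and 46.9% in the 4 bands below a level of 1.6, 54.2% at 1.6 to 3.0, 67.0% in the members and 76.8% in the genes above the range. Within the members, ordered by level in 4 groups of 38 genes, it was 65.4%, 63.7%, 68.2% and 70.3% from the lowest to the highest group, with no rise between the lowest 2. Pearson's r with level over the 104 members was 0.20 and Spearman's rho was 0.186, a weak relation over genes whose levels span only 2.64-fold. Read on the reverse strand, where codons carry no such meaning, the share was 48.1% in the members and 44.0% in other genes. The reverse share rose with level too, by less. It was 43.9% at 0 to 1.6, 46.5% at 1.6 to 3.0 and 54.4% in the genes above the range. Of all probes, 7.33% had no stop-free frame forward and 15.8% had none in reverse.

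**Figure D4:**
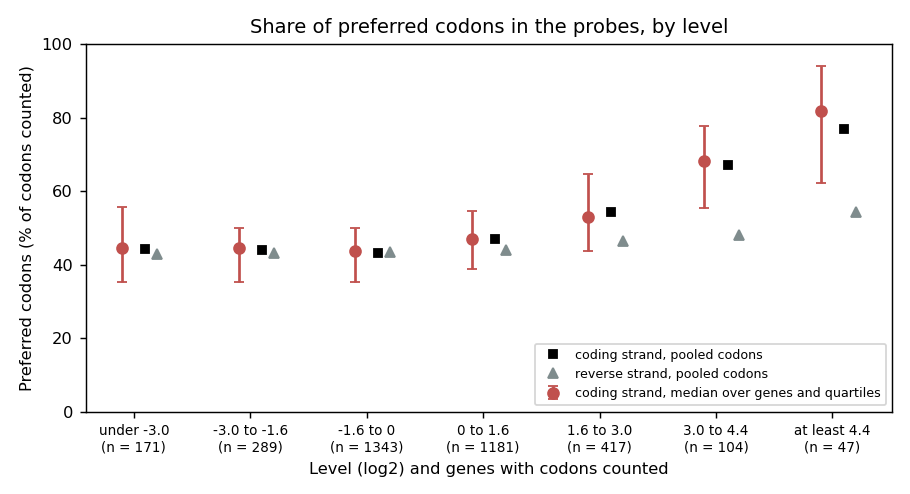
Share of preferred codons in the probes (y axis, % of codons counted) in 7 bands of level (x axis, log2, with the number of genes), as the pooled share on the coding strand (squares), the median over genes with quartiles (red circles and bars) and the pooled share on the reverse strand (triangles). On the coding strand the pooled share is 54.2% below the members, 67.0% in them and 76.8% above them.

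The shift was shared by most amino acids. In 17 of 18 amino acids with synonymous codons the preferred codons took a larger share in members than in other genes, in 13 of them by more than 15 percentage points. Arginine showed the widest gap, with AGA at 76.2% of 105 arginine codons in members and 39.7% in other genes, while CGG took 0.95% against 7.79%. Tyrosine was encoded by TAC at 84.8% against 52.5%, glycine by GGT at 67.5% against 35.8%, asparagine by AAC at 78.2% against 47.9% and lysine by AAG at 78.8% against 51.3%. For leucine, TTG took 46.3% against 25%, and for isoleucine ATA took 5.26% against 29.4%.

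Other amino acids hardly moved. Histidine (46.9% against 41.9%, 32 codons in members), cysteine (57.1% against 52.8%, 28 codons) and glutamine (62.2% against 59.3%) differed by under 5 points, and the few histidine and cysteine codons limit what can be read from them. Glutamate was the single exception in direction, with GAA at 56.2% in members and 57.2% in other genes, and at 45.2% in the genes above the range. The preferred codons of S. cerevisiae thus do not describe every amino acid of this yeast's members equally.

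**Figure D5:**
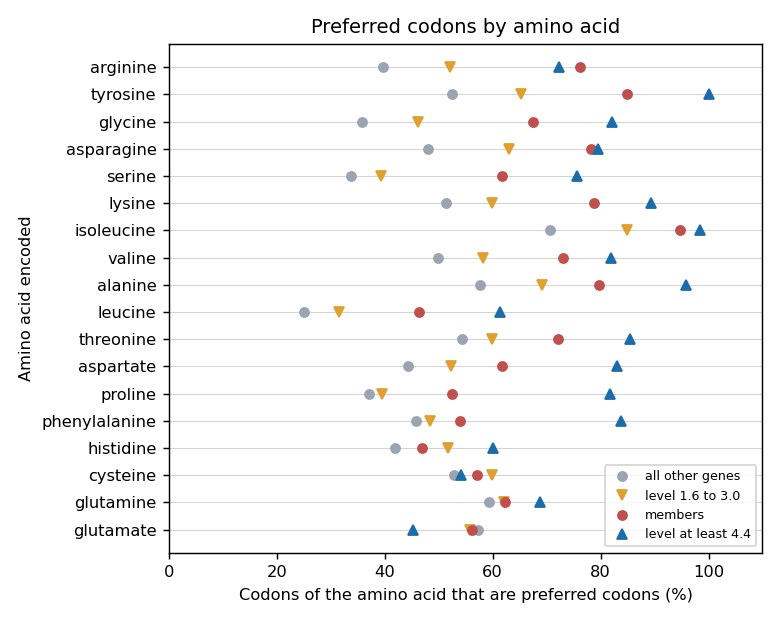
Share of preferred codons among the codons of each amino acid (x axis, %), for the members (red circles), genes at 1.6 to 3.0 (orange triangles), genes at 4.4 or more (blue triangles) and all genes that are not members (grey circles). Members exceed the other genes in 17 of 18 amino acids, most in arginine (76.2% against 39.7%), and glutamate is the exception.

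Single members covered a wide range of codon use. Among members with at least 30 codons counted, picked after their values were seen, Kwal_26.6727 had 35 preferred codons of 36 (97.2%) at a level of 3.28 ± 0.17. Kwal_27.12366 (4.11 ± 0.12) and Kwal_27.11596 (3.97 ± 0.11) had 31 of 35 each (88.6%). At the other end, Kwal_47.17051 had 14 of 36 (38.9%) at 3.07 ± 0.096, Kwal_26.7194 had 16 of 36 (44.4%) at 3.22 ± 0.30 and Kwal_23.6157 had 17 of 36 at 3.99 ± 0.24. High and low codon shares thus occurred at both ends of the members' levels, and the lowest 2 of these shares lay below the 46.4% of other genes. The probes of Kwal_26.6727 overlap by 50 bases, and those of Kwal_27.12366, Kwal_27.11596 and Kwal_26.7194 by 54 each. Most of their codons were thus counted again in the other probe. Kwal_47.17051 (26 bases) is affected in part. Members with fewer codons counted reached lower shares, such as 4 of 16 (25%) in Kwal_47.19272. A probe covers only a short stretch of its gene, and the share over the whole gene was not analysed here.

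Members came from every contig with at least 100 genes, read from the contig number that precedes the point in each identifier. Positions within contigs were not analysed here. On the 9 contigs with at least 100 genes, between 2.01% and 5.56% of genes were members. The most members were on contig 27, with 33 of its 673 genes (4.90%), and the highest share was on contig 34, with 8 of 144 (5.56%). Contigs of under 100 genes held 3 members among 223 genes (1.35%), a lower share than on any of the larger contigs. Ordered by identifier, 9 pairs of members followed one another directly, 5 of them on contig 27, and 0 runs of 3 or more were found. The 18 genes of these pairs are 11.8% of members, and 5.54% of other genes had a member as a neighbour. The median level of the genes next to members was 0.13, close to the 0.0088 of genes next to other genes, so that members mostly stood beside genes of ordinary level.

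A group of 4 adjacent pairs on contig 27 was linked by sequence. Kwal_27.10964 and Kwal_27.11476 have probes that share a stretch of 26 bases, and each is followed by another member, Kwal_27.10967 and Kwal_27.11478. Their levels were 3.59 ± 0.11 and 3.41 ± 0.14 for the genes that share the stretch, and 4.18 ± 0.049 and 3.49 ± 0.14 for the genes that follow. In the same way Kwal_27.10999 (3.54 ± 0.010) and Kwal_27.11599 (3.19 ± 0.083) share 29 bases, and each is preceded by a member, Kwal_27.10996 (3.09 ± 0.034) and Kwal_27.11596 (3.97 ± 0.11). Genes that share such a stretch can take up each other's target, and the levels of these 4 genes are uncertain in that respect. The other adjacent pairs were Kwal_27.12366 with Kwal_27.12369, Kwal_26.6973 with Kwal_26.6979, Kwal_33.14217 with Kwal_33.14220, Kwal_47.17049 with Kwal_47.17051 and Kwal_55.20064 with Kwal_55.20068.

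In all, 0 members shared a whole probe with another gene and 7 shared a stretch of at least 20 bases with a probe of another gene. The latter are 4.61% of members, near the 3.93% of all genes (204 of 5192), and 78 genes in all shared a whole probe. Beside those 4 genes, Kwal_56.24453 (3.58 ± 0.090) shared 32 bases with Kwal_56.24462, whose level was 2.36. Kwal_55.22201, the member of highest genomic DNA signal, shared 26 bases with Kwal_47.16825, at 2.77. Kwal_47.17049, whose overlapping probes differed, shared 21 bases with Kwal_33.15428, at 5.85 one of the genes above the range. What these shared stretches add to the levels of the 7 members was not tested.

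Sets of array values in which a single array stood apart were found for Kwal_23.3955, Kwal_23.5831 and Kwal_55.22201. Kwal_23.3955 measured 4.32, 4.09, 4.30 and 4.33 (4.26 ± 0.11), with array 2 low. Kwal_23.5831 measured 4.01, 3.99, 4.25 and 3.98, and Kwal_55.22201 measured 3.20, 3.19, 3.32 and 3.20, with array 3 high in both. All of these values lie in the members' range.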

How the data were processed

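The authors labelled total RNA with Cy3 and genomic DNA with Cy5 and scanned 4 arrays. The deposited scanner files hold median and mean intensity and local background for each spot, which the authors obtained from Agilent Feature Extraction (version 10.1.1.1 per the file headers, not the version in the study's methods), and a log10 ratio made by the same software after detrending and dye normalization. The authors' deposited table holds log2 values of RNA over genomic DNA for each gene, not centred. The study's methods state background subtraction, but 5179 of 5193 rows (99.7%) of this table equalled, within 1e-05 on all 4 arrays, the log2 of the mean over probes of unsubtracted median ratios, and 0 rows equalled the subtracted ones. Both were used as alternatives, and rows of the table were not named.

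The rule's steps were the median background subtracted from the median signal, log2 of Cy3 over Cy5, the median over probes, subtraction of each array's median over genes, and the mean of arrays. Of 10922 spots, 536 were controls. Of 10386 gene probes, 254 marked as outliers in either channel on any array and 1 without a positive signal were left out, which left 10131. Median signals of gene probes were 1191 to 1714 units for RNA and 7917 to 9640 for genomic DNA.

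The study's quantile normalization was an alternative, since the rule centres by medians. Probe differences were tested with limma 3.58.1 (R 4.3.3; treat, log2 bound of 1, adjusted p threshold 0.05), after a check on simulated arrays. Codons and shared stretches were counted in the probe sequences, which are not printed here. The 23 preferred codons were those ending in T or C for alanine (GCT and GCC), serine (TCT and TCC), threonine, valine and isoleucine, those ending in C for aspartate, phenylalanine, tyrosine, asparagine and histidine, and 1 codon each for cysteine (TGT), glutamate (GAA), glutamine (CAA), glycine (GGT), lysine (AAG), proline (CCA), leucine (TTG) and arginine (AGA).

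Members, lists and tests were chosen with earlier results of these data known. Genes named are the 4 highest and 4 lowest members, the 2 nearest genes outside each threshold, 3 nearest the median with separate probes, 3 with the largest and smallest SD, 4 with the widest probe gap, 3 with the highest and lowest genomic DNA signal, those moved most by the division, and those sharing probe sequence. Adjacent pairs and codon extremes were named after their values were seen. The 4 arrays carry no batch that could be compared within the group.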

Additional observations from a re-analysis of the deposited data

Results flagged for a closer look

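Dixon's criterion for 4 arrays (gap to the next array over the whole range) was passed by the levels of 3 named genes out of 33 quantities checked, and chance passes about 1 in 20. Kwal_23.3955 stood at 4.09 on array 2, with the other arrays at 4.30 to 4.33. Kwal_23.5831 stood at 4.25 on array 3, with the others at 3.98 to 4.01. Kwal_55.22201 stood at 3.32 on array 3, with the others at 3.19 to 3.20. Over all 152 members 10 (6.58%) passed the limit, 1 through array 1, 4 through array 2, 3 through array 3 and 2 through array 4. The share over all genes was not determined, so that this count is not a result about the members.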

How the results depend on the processing

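The number of genes in the range, 152 as described, was 143 to 184 under all alternatives but 2, among them the authors' table with 148 and RNA alone with 184. A like count did not always hold the same genes. Of the 152 members, 114 stayed in the range with RNA alone, 120 with normexp (161 genes in range) and 136 with the rise of genomic DNA signal subtracted. Leaving out single arrays kept 146 to 151. The exceptions were the log ratio of the scanner software, with 4 genes, and normexp background with loess, with 0, so that the SD, GC, codon and neighbour values of genes in the range could not be given under the latter. These scalings narrow the range of levels from the 5th to the 95th percentile from 6.04 to 3.49 and 3.96. Taken by rank (91 to 242, chosen after seeing the data), the scanner log ratio kept 38 members and loess kept 24. Without single arrays the count was 149 to 155.

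Members with a probe difference beyond 2-fold numbered 2, beside 1.21% of all genes, and 2 without any single array. With separate probes the count was 1, beside 1.74% of all such genes. It was 1 with RNA alone and 18 with normexp and loess. The shares over all genes are not given here for these 2 settings, so that their counts are not a result about the members. The test against no difference, not beyond 2-fold, called 51 of 142 members, a lower share than that over all genes given above. The median SD of members, 0.101, was 0.0714 with quantile normalization, 0.122 with RNA alone, 0.132 with the scanner log ratio, 0.129 with normexp, and 0.0855 to 0.108 without single arrays. The gap in preferred codons, 20.6 percentage points, was 17.0 with RNA alone, 16.9 with the rise of genomic DNA signal subtracted (164 genes in range, chosen after seeing the data), 12.9 over all stop-free frames, 4.06 on the reverse strand (chosen likewise), 1.46 with the scanner log ratio over its 4 genes, and 18.8 to 20.7 without single arrays. The share of members with a member as neighbour, 11.8%, was 0 with the scanner log ratio, 9.32% with normexp and 10.6% to 12.9% without single arrays. The gap in GC content was 0.909 points under every alternative that gave a value. That is the smallest step possible for a gene with 2 probes of 55 bases, so that the unchanged value says little.

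Levels changed sign under normexp with loess for Kwal_0.204 (-0.52), Kwal_14.1845 (-0.067), Kwal_23.5831 (-0.73), Kwal_33.13869 (-0.54), Kwal_33.14208 (-0.42), Kwal_33.15500 (-0.56), Kwal_47.16834 (-3.62) and Kwal_55.22201 (-3.90). The scanner log ratio turned Kwal_47.16834 (-1.97) and Kwal_55.22201 (-2.04), and Kwal_37.16342 was at -5.30 with RNA alone and -2.61 with normexp. The cause was not tested.

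No paired analysis was possible because all 4 arrays belong to 1 group. Quantile normalization, which acts on genes, was not run for the probe differences. The levels rest on 1 strain, 1 medium and 4 arrays, and short probes leave codon use and copy number of whole genes unmeasured.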
